A study of Mus musculus with 6 samples.

Results

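The interleukin-1 (IL-1) family and the inflammasome were examined through 10 genes: the cytokine genes Il1a, Il1b and Il18, the antagonist gene Il1rn, the receptor genes Il1r1 and Il1r2, and the inflammasome genes Nlrp3, Pycard, Casp1 and Gsdmd. They were listed by name for their role, with earlier results of these data known, and all 10 were among the 21849 genes tested of the 56748 Ensembl IDs counted. Messenger RNA was measured by RNA-seq of polyadenylated RNA in bone marrow-derived dendritic cells (BMDCs), which are antigen-presenting cells grown in culture from bone marrow. The comparison asked how mRNA levels differ between C57BL/6 WT and global Nfkb2-/- cells, with 3 libraries per genotype. Both genotypes were grown for 5 days with GM-CSF and then for 4 days with GM-CSF and IL-4, 9 days in all, and neither was given a further stimulus. The deletion was carried by all cells of the mouse and hence also by the bone marrow progenitors that were put in culture. The study describes the 3 libraries of a genotype as independent biological replicates, and the labels do not tie them to separate animals or cultures. Protein, cytokine release and caspase activity were not measured by these libraries.

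IL-1α and IL-1β bind the same receptor, IL-1R1, which signals through the adaptor MyD88, and the IL-1 receptor antagonist encoded by Il1rn competes with them for it. IL-1β and IL-18 are made as inactive precursors that need cutting. That cut is made by caspase-1, which the sensor NLRP3 and the adaptor ASC (encoded by Pycard) recruit into an inflammasome, and caspase-1 also cuts gasdermin D, whose freed end forms pores in the plasma membrane. In dendritic cells and macrophages, transcription of Il1b and Nlrp3 is classically induced by NF-κB after a microbial signal. Nfkb2 encodes p100, the precursor of the NF-κB subunit p52 and an inhibitor of other NF-κB subunits.

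Nfkb2 measured 215, 154 and 355 CPM (counts scaled to library size, with TMM normalization between libraries) in WT replicates 1, 2 and 3, and 44.8, 32.3 and 32.6 CPM in Nfkb2-/- replicates 1, 2 and 3. Its log2 fold change, given here and throughout as Nfkb2-/- against WT, was -2.72 (standard error 0.33, edgeR adjusted p = 0.0307), so the labels and the deleted gene agreed in all 6 libraries. Total counts ranged from 29863927 to 55623068 per library, at which 1 count was worth 0.0187 to 0.0344 CPM. A pair of libraries stood apart. Nfkb2-/- replicate 1 had counts on 47952 IDs, against 27692 to 33841 in the others. In WT replicate 3, the 12 macrophage markers summed to 192 CPM, against 1160 and 1314 CPM in the other WT libraries and 727 to 933 CPM in the Nfkb2-/- libraries, and its 8 mature dendritic cell markers summed to 16902 CPM, against 7621 to 11827 CPM elsewhere. The defining dendritic cell markers were present in every library, Cd74 at 1870 to 3691 CPM and Itgax at 123 to 277 CPM in WT and 716 to 769 CPM in Nfkb2-/-. Itgax was called (log2 fold change 1.99, edgeR adjusted p = 0.0414). The 10 dendritic cell markers summed to 5369 to 9384 CPM in WT and 7282 to 8364 CPM in Nfkb2-/- libraries. Their log2 fold changes were above 0 for 6 and below 0 for 4. Zbtb46 lay below WT in all Nfkb2-/- libraries and Clec10a above, without being called. The 11 neutrophil markers summed to 88.7 to 259 CPM in WT and 195 to 217 CPM in Nfkb2-/- libraries, with S100a8 at 49.6 to 98.8 CPM and Ly6g at 0.41 to 2.68 CPM over the 6 libraries, and 0 of the 10 tested were called. Within that list, Cxcr2 was at 1.31 to 12.0 CPM in WT and 65.1 to 93.1 CPM in Nfkb2-/- (edgeR adjusted p = 0.0568), while Ltf, Ngp, Retnlg and Csf3r had log2 fold changes from -2.13 to -1.60. The 8 mast cell and basophil markers summed to 46.7 to 57.0 CPM in WT and 51.1 to 58.2 CPM in Nfkb2-/- libraries. Most of this was Kit, at 37.2 to 43.0 CPM in WT and 41.2 to 50.5 CPM in Nfkb2-/-. Of the 8, Cpa3 was called, at 6.31 to 10.8 CPM in WT and 1.86 to 2.49 CPM in Nfkb2-/- (edgeR adjusted p = 0.0413). Mcpt8 was at most 0.74 CPM and at 0 in Nfkb2-/- replicate 2. Without being called, Gata2 and Hdc were above WT in all Nfkb2-/- libraries, and Ms4a2 and Mcpt8 were below WT in all of them. Lymphocyte markers summed to at most 5.11 CPM and erythroid markers to at most 0.80 CPM.

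Because the deleted gene encodes an NF-κB subunit, the promoters of the 10 genes were searched for the consensus κB site on both strands, in RefSeq windows of GRCm38.p6 from 250 bases before to 50 bases after each start site. Windows were given for 9 of the 10 genes, 13 windows in all, and 2 of them held a site, as did 2779 of all 32851 windows (8.46%). Both windows are shown for the position of the match, on the plus strand from 5′ to 3′, with the matched bases in capitals. The Il1r1 window lies at chr1:40266336-40266635, at a start site within the gene, and its match begins at position -232 from that start. The Nlrp3 window lies at chr11:59541319-59541618, and its match begins at position -186 from the start. The other Nlrp3 window, at chr11:59542436-59542735, held none. A match of letters describes the window and is not evidence of binding.
Il1r1: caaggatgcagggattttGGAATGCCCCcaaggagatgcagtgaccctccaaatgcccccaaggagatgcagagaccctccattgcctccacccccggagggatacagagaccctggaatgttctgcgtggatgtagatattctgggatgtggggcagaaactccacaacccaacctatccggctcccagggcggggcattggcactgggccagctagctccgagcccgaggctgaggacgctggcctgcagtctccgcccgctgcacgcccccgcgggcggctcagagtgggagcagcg
Nlrp3: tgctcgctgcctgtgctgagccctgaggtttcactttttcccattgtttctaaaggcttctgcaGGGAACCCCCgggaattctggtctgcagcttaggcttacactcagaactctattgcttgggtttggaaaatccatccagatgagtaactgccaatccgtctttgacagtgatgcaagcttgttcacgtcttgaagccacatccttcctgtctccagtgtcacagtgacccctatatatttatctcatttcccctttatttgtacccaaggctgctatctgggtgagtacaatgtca

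None of the 10 genes was called differentially expressed. A call required that edgeR's adjusted p-value fall below 0.05 and that the fold change exceed 1.2, which 248 of all 21849 genes met (1.14%). DESeq2 called 0 of the 10 too, although it called 1890 of all genes (8.65%). It gave no adjusted p-value for 5176 of the 21849 genes, and that share counts them as not called. Before adjustment, 2 of the 10, Il1r1 and Il18, had p-values below 0.05, as did 17.1% of all genes. The log2 fold change was above 0 for 8 of the 10 and below 0 for Il18 and Gsdmd, with a median of 0.30, against 0.08 over all genes tested. All 3 Nfkb2-/- values lay above all 3 WT values for Il1rn and Il1r1, and below them for Il18 and Gsdmd. Such a separation upward was seen in 12.7% of all genes tested and downward in 12.0%, so the 2 genes in each direction are read against these shares. The plot of CPM by library shows the 10 genes side by side.

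**Figure D1:**
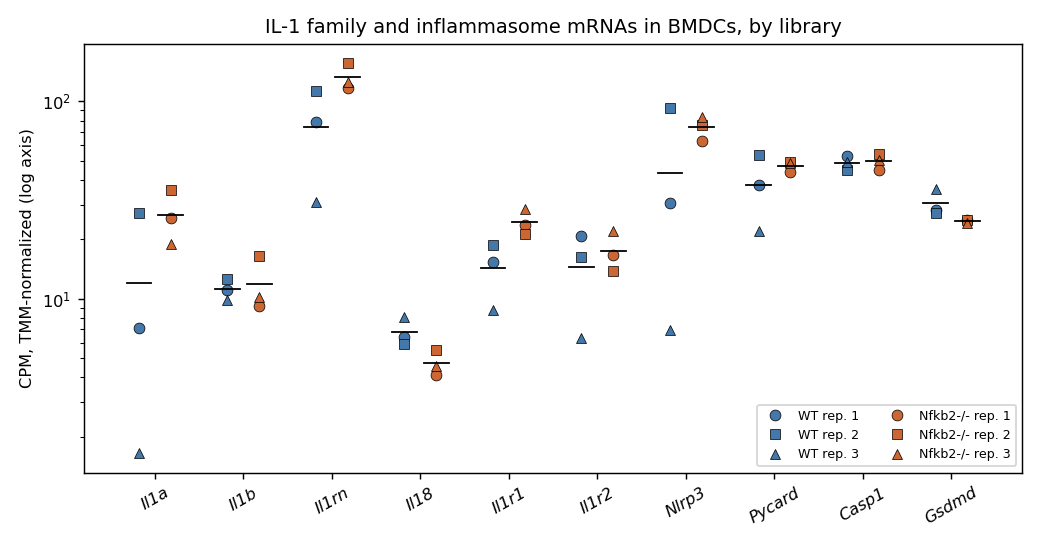
TMM-normalized CPM (log axis) of the 10 genes in each library, WT in blue and Nfkb2-/- in orange, with circles, squares and triangles for replicates 1, 2 and 3 and a bar at the genotype mean (n = 3). The WT points of Il1a run from 1.65 to 27.1 CPM and those of Nlrp3 from 6.99 to 92.3 CPM, while the Nfkb2-/- points of each of the 10 genes lie within 1.88-fold of each other.

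Il1a (ENSMUSG00000027399, chr2:129299610-129309972, minus strand, GRCm38) encodes IL-1α, which is active without caspase-1. It measured 7.07, 27.1 and 1.65 CPM in WT replicates 1, 2 and 3 and 25.6, 35.6 and 18.9 CPM in Nfkb2-/- replicates 1, 2 and 3. WT replicate 3, with 48 counts, was the lowest of the 6 libraries, and WT replicate 2, with 882 counts, lay within the Nfkb2-/- range, so the genotypes overlapped. The log2 fold change was 1.16 (standard error 0.83, 95% interval -0.78 to 3.10, edgeR adjusted p = 0.523). It came to 0.65 when WT replicate 3 was left out and to 2.59 when WT replicate 2 was left out, with edgeR adjusted p-values of 0.633 and 0.0731. The one fit that called Il1a kept every gene with a count in any library and gave an adjusted p of 0.00473 from edgeR. Exons of Il1a overlap those of Gm14023 on the other strand, and whether strand was used in counting is not given in the sources used here, so reads of the pair cannot be told apart in that overlap.

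Il1b (ENSMUSG00000027398, chr2:129364570-129371139, minus strand) encodes IL-1β, the form that caspase-1 activates. Its values were close in both genotypes, 11.0, 12.6 and 9.84 CPM in WT and 9.19, 16.4 and 10.2 CPM in Nfkb2-/- BMDCs. The lowest and the highest value both came from Nfkb2-/- libraries, replicates 1 and 2. A log2 fold change of 0.10 was obtained (standard error 0.25, edgeR adjusted p = 0.881), with a 95% interval from -0.50 to 0.69. A change of more than 1 on the log2 scale in either direction thus lies outside the interval for Il1b. Its exons overlap those of Il1bos on the other strand.

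Il1rn (ENSMUSG00000026981, chr2:24336853-24351494, plus strand) was measured at 78.7, 112 and 30.8 CPM in WT and at 117, 156 and 126 CPM in Nfkb2-/- libraries. All Nfkb2-/- values were above all WT values, but the gap between the highest WT library and the lowest Nfkb2-/- library was small beside the spread within WT. Means were 73.9 ± 41.0 CPM (SD, n = 3) in WT and 133 ± 20.1 CPM (SD, n = 3) in Nfkb2-/- BMDCs. The log2 fold change of 0.85 (standard error 0.42, 95% interval -0.13 to 1.83) did not pass the test (edgeR adjusted p = 0.364), and it was 0.48 without WT replicate 3.

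Il18 (ENSMUSG00000039217, chr9:50554827-50581840, plus strand) encodes IL-18, which drives interferon-γ production by lymphocytes. Its levels were low, 6.38, 5.88 and 8.05 CPM in WT and 4.11, 5.47 and 4.55 CPM in Nfkb2-/- libraries. The genotypes did not overlap, with WT replicate 2 and Nfkb2-/- replicate 2 nearest to each other. Between genotypes, the log2 fold change was -0.52 (standard error 0.21, 95% interval -1.03 to -0.02), with an edgeR adjusted p of 0.273. In contrast to the other cytokine genes, Il18 was highest in WT replicate 3.

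Il1r1 (ENSMUSG00000026072, chr1:40225080-40317257, plus strand), the signaling receptor, had the smallest p-value of the 10 genes. It was found at 15.4, 18.6 and 8.74 CPM in WT and at 23.5, 21.4 and 28.5 CPM in Nfkb2-/- libraries, so that every Nfkb2-/- library exceeded every WT library. The log2 fold change was 0.78 (standard error 0.29, 95% interval 0.11 to 1.45, unadjusted p = 0.0284 and adjusted p = 0.225 from edgeR). Without WT replicate 3 it was 0.53, and without Nfkb2-/- replicate 1 it was 0.80. The κB match shown above for Il1r1 lies at an inner start site, and its outer start site window held none.

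Il1r2 (ENSMUSG00000026073, chr1:40074079-40125231, plus strand) encodes the decoy receptor, which binds IL-1 without signaling. It measured 20.9, 16.3 and 6.30 CPM in WT and 16.6, 13.8 and 21.9 CPM in Nfkb2-/- libraries, and the genotypes overlapped. Its log2 fold change was 0.27 (standard error 0.41, 95% interval -0.70 to 1.24, edgeR adjusted p = 0.778), and without WT replicate 3 it turned to -0.09.

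Nlrp3 (ENSMUSG00000032691, chr11:59541568-59566956, plus strand), the sensor, varied more among WT libraries than any other of the 10 genes except Il1a. WT replicates 1, 2 and 3 gave 30.6, 92.3 and 6.99 CPM, whereas Nfkb2-/- replicates 1, 2 and 3 gave 63.2, 75.5 and 83.1 CPM. WT held both the highest and the lowest of the 6 values, so that the WT range spanned 13.2-fold and enclosed the Nfkb2-/- range of 1.32-fold. Means of 43.3 ± 44.1 CPM (SD, n = 3) and 74.0 ± 10.1 CPM (SD, n = 3) gave a log2 fold change of 0.77 (standard error 0.75, 95% interval -0.98 to 2.52, edgeR adjusted p = 0.637). Leaving out WT replicate 3 gave 0.27 and leaving out WT replicate 2 gave 1.97, with edgeR adjusted p-values of 0.806 and 0.123.

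Pycard (ENSMUSG00000030793, chr7:127989708-127993867, minus strand), which encodes the adaptor ASC, was present at 37.8, 53.5 and 22.1 CPM in WT and at 43.7, 49.5 and 48.5 CPM in Nfkb2-/- libraries. As with Nlrp3, WT replicate 2 was the highest and WT replicate 3 the lowest of the 6. Its log2 fold change was 0.32 (standard error 0.30, edgeR adjusted p = 0.621) and 0.05 without WT replicate 3. Exons of Pycard overlap those of Gm45205 on the other strand.

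Casp1 (ENSMUSG00000025888, chr9:5298517-5307265, plus strand), encoding caspase-1, was the steadiest of the 10 genes in WT, with 53.0, 44.8 and 49.2 CPM, and measured 45.0, 54.2 and 50.2 CPM in Nfkb2-/- libraries. The genotypes overlapped almost entirely. Its log2 fold change of 0.02 had a 95% interval from -0.32 to 0.36 (standard error 0.15, edgeR adjusted p = 0.954), the narrowest interval among the 10 genes.

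Gsdmd (ENSMUSG00000022575, chr15:75862327-75867408, plus strand), encoding the pore-forming gasdermin D, measured 28.1, 27.3 and 36.0 CPM in WT and 25.0, 25.2 and 24.3 CPM in Nfkb2-/- libraries. The Nfkb2-/- values lay within 1.03-fold of each other and below all WT values. The estimate for Gsdmd was -0.29 on the log2 scale (standard error 0.16, 95% interval -0.67 to 0.08, edgeR adjusted p = 0.412), and without WT replicate 3, the highest library, it was -0.15.

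**Figure D2:**
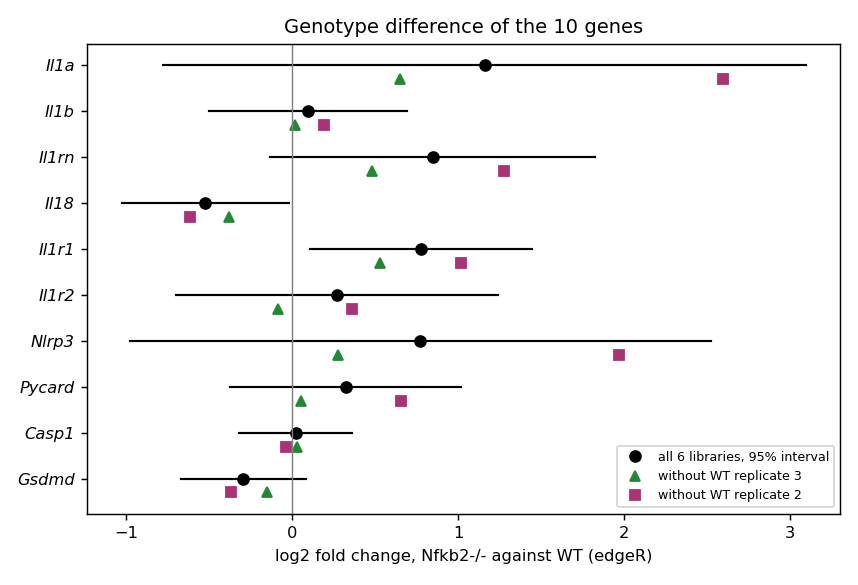
Log2 fold change of each gene, Nfkb2-/- against WT, from edgeR with all 6 libraries (black, with its 95% interval), without WT replicate 3 (green triangles) and without WT replicate 2 (purple squares). The values of Il1a span 0.65 to 2.59 and those of Nlrp3 0.27 to 1.97 between these fits, while those of Il1b span 0.02 to 0.19 and those of Casp1 -0.04 to 0.03.

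Levels of different genes were compared as CPM per kilobase of union exons, which join all annotated exons of a gene. Which transcripts were expressed was not determined. The order given here therefore holds for these lengths, such as 3800 bases for Pycard and 1497 for Casp1, and could differ with transcript lengths. By this measure, Casp1 was the highest of the 10 in both genotypes. It had 32.7 ± 2.75 CPM per kilobase in WT and 33.3 ± 3.06 in Nfkb2-/- BMDCs (SD, n = 3), and its range stood apart from that of the next gene. Il1r1 was the lowest in both, with 2.24 ± 0.79 and 3.85 ± 0.58 CPM per kilobase, respectively (SD, n = 3). Between these ends, the WT order by mean was Il1rn, Gsdmd, Nlrp3, Pycard, Il1r2, Il18, Il1a and Il1b, and no neighbors in that stretch had ranges that stood apart. In Nfkb2-/- BMDCs the order was Il1rn, Nlrp3, Il1a, Pycard, Gsdmd, Il1r2, Il1b and Il18. There the range of Il1rn stood apart from that of Nlrp3, and the range of Pycard from that of Gsdmd, while the other neighbors overlapped. Gsdmd thus preceded Nlrp3 in WT, at 12.8 ± 2.03 against 10.7 ± 10.9 CPM per kilobase, and followed it in Nfkb2-/- BMDCs, at 10.4 ± 0.19 against 18.2 ± 2.48 (SD, n = 3). The WT ranges of Gsdmd and Nlrp3 overlapped.

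Ratios within a library do not depend on how libraries are scaled, so 3 pairs of genes with opposed or shared roles were compared as log2 ratios of counts. They were tested with two-sided exact permutation tests, whose smallest p-value with 3 libraries per genotype is 0.1. The ratio of the antagonist Il1rn to the agonist Il1b was 2.83, 3.15 and 1.64 in WT and 3.67, 3.24 and 3.62 in Nfkb2-/- libraries on the log2 scale. The genotypes did not overlap. These are ratios of counts, and Il1rn has 5535 exonic bases against 1907 for Il1b. Per kilobase of union exons, the ratio of Il1rn to Il1b was 1.08 in WT replicate 3, 2.45 and 3.06 in the other WT libraries and 4.40, 3.27 and 4.24 in Nfkb2-/- libraries. The means of 2.54 ± 0.79 and 3.51 ± 0.23 (SD, n = 3) differed by 0.97 (exact permutation p = 0.1, the smallest possible), and by 0.52 without WT replicate 3.

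For the decoy receptor against the signaling receptor, the log2 ratio of Il1r2 to Il1r1 was 0.43, -0.20 and -0.47 in WT and -0.50, -0.63 and -0.38 in Nfkb2-/- libraries. Il1r1 has 6363 exonic bases against 1908 for Il1r2. Per kilobase of union exons, Il1r2 exceeded Il1r1 in every library, by 2.40-fold to 4.51-fold in WT and 2.15-fold to 2.56-fold in Nfkb2-/-. The genotypes overlapped, and the means differed by -0.43 (exact permutation p = 0.2), a difference that was -0.17 without WT replicate 1. For the agonists, the log2 ratio of Il1a to Il1b was -0.64, 1.10 and -2.56 in WT and 1.48, 1.11 and 0.89 in Nfkb2-/- libraries. Il1a counts exceeded Il1b counts in WT replicate 2 and all 3 Nfkb2-/- libraries and fell short of them in WT replicates 1 and 3. Means of -0.70 ± 1.83 and 1.16 ± 0.30 (SD, n = 3) differed by 1.86, with an exact permutation p of 0.2. Over the 3 ratios, none could pass a threshold of 0.05 in this design.

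**Figure D3:**
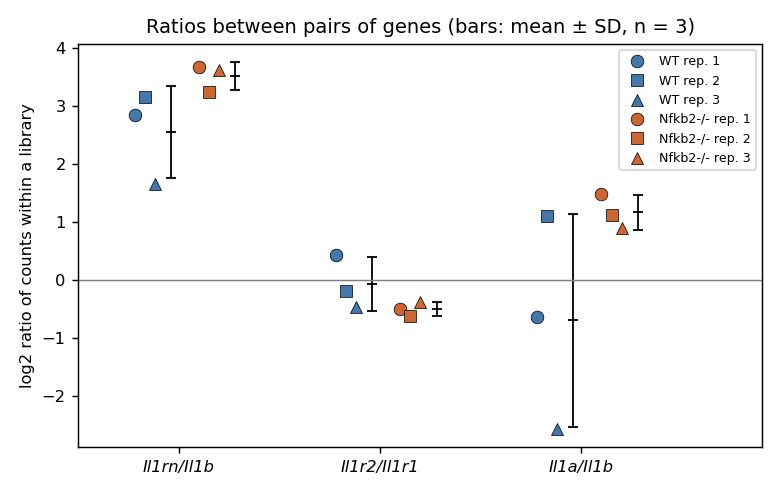
Log2 ratios of counts within a library for Il1rn to Il1b, Il1r2 to Il1r1 and Il1a to Il1b, WT in blue and Nfkb2-/- in orange, with black bars for the mean ± SD (n = 3). The Il1rn to Il1b ratio is above 0 in all 6 libraries, and the Il1a to Il1b ratio runs from -2.56 to 1.10 in WT against 0.89 to 1.48 in Nfkb2-/-.

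The spread of these genes lay mostly among the WT libraries. For 8 of the 10 genes the highest-to-lowest fold was larger among WT than among Nfkb2-/- libraries, with Il1b and Casp1 as the exceptions. The same held for 60.5% of the tested genes whose mean reached 5 CPM. WT replicate 3 was the lowest of the 6 libraries for Il1a, Il1rn, Il1r1, Il1r2, Nlrp3 and Pycard, 6 of the 10, against 25.2% of those genes at large. It was the highest for Il18 and Gsdmd. The summed level of the 10 genes was 289, 411 and 180 CPM in WT replicates 1, 2 and 3 and 373, 453 and 416 CPM in Nfkb2-/- replicates 1, 2 and 3.

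Markers of macrophages, a cell type that GM-CSF cultures can also hold, were lowest in the same library. From flow cytometry, the paper describes its GM-CSF and IL-4 cultures as lacking macrophage-like cells with high levels of a macrophage surface marker. It gives no such values for these libraries. Whether macrophages carried the marker mRNAs measured here was not tested. Of the 12 macrophage markers, 11 were lowest in WT replicate 3 and 10 followed the WT order of replicate 2 above 1 above 3, which 6 of the 10 IL-1 and inflammasome genes followed too. These 6 include Il1b and not Il1r2, and the share of all genes with that order was not determined. Among the defining macrophage markers, C1qa gave 20.2, 20.6 and 2.68 CPM in WT and 15.5, 11.5 and 19.0 CPM in Nfkb2-/- libraries, and Mertk 66.1, 90.2 and 17.8 CPM in WT and 73.0, 71.1 and 67.6 CPM in Nfkb2-/- libraries. Neither was at 0 in any library. The list held 5 log2 fold changes above and 7 below 0, and 0 of the 12 were called. Apoe was the one macrophage marker without overlap, at 82.3, 56.5 and 3.68 CPM in WT and 2.25, 0.73 and 0.90 CPM in Nfkb2-/- libraries (edgeR adjusted p = 0.0770). Of the 8 mature dendritic cell markers, 7 were highest in WT replicate 3. Between genotypes, 7 of the 8 log2 fold changes were below 0, with a median of -0.86. Of the 8, 4 were lower in every Nfkb2-/- library, against 12.0% of all genes tested. Cd86 was higher in every one (log2 fold change 0.58), as were 12.7% of all genes tested. Only Il12b was called (log2 fold change -3.09, edgeR adjusted p = 0.0489). In bulk RNA, fewer cells of a type and less RNA per cell cannot be told apart, and the part of cell composition in the values of the 10 genes was not tested. With WT replicate 3 left out, none of the 10 genes was called, and the log2 fold changes of Il1a, Il1rn, Il1r1, Nlrp3, Pycard, Il18 and Gsdmd kept their sign at smaller size. With Nfkb2-/- replicate 1 left out, the log2 fold changes ran from -0.44 for Il18 to 1.18 for Il1a, and with both libraries left out from -0.31 to 0.66 for these same genes, again with 0 of the 10 called.

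**Figure D4:**
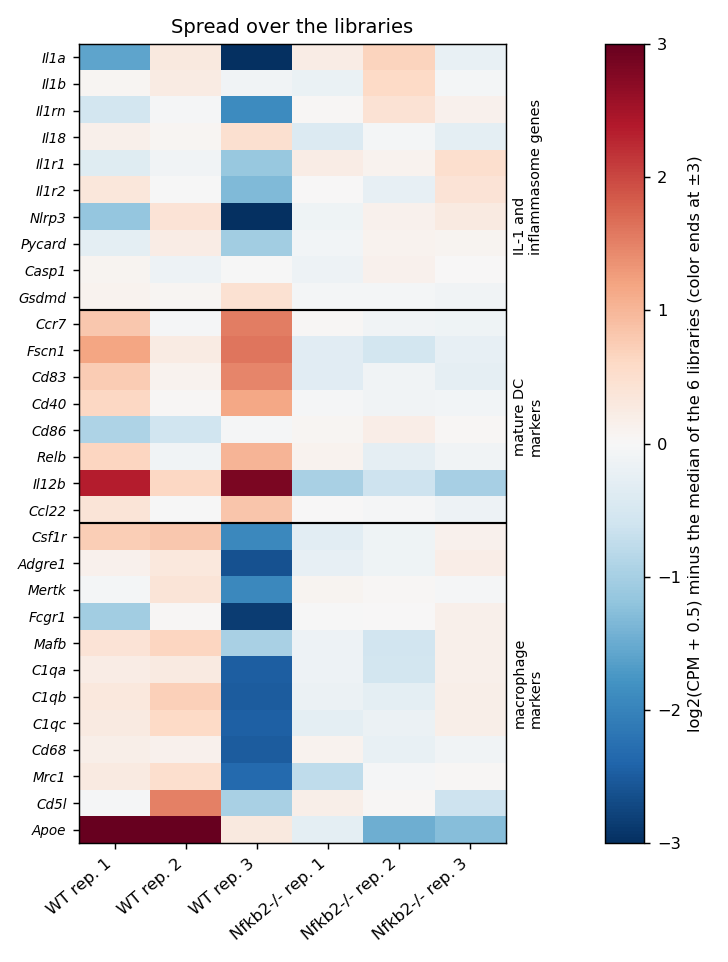
Deviation of each gene from its median over the 6 libraries, as log2(CPM + 0.5), for the 10 IL-1 and inflammasome genes, 8 mature dendritic cell (DC) markers and 12 macrophage markers, with colors ending at ±3. WT replicate 3 is blue (low) for Il1a, Il1rn, Il1r1, Il1r2, Nlrp3 and Pycard and for 11 of 12 macrophage markers where it is the lowest library, and red (high) for most mature DC markers.

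The rest of the pathway was covered by a list of 54 genes, of which 48 were tested and 0 called by edgeR, with 10 at an unadjusted p-value under 0.05. The shares over all genes were 1.14% and 17.1%. DESeq2 called 9 of the 48, against 8.65% of all genes: Il33, Il18bp, Traf6, Nlrp1a, Nlrp10, Aim2, Serpinb1a, Serpinb9 and Trim30a. The median log2 fold change was 0.07, with 31 genes above and 17 below 0, where 55.7% of all genes tested lay above 0. All Nfkb2-/- values were above all WT values for 9 of the 48 genes and below them for 5, against 12.7% and 12.0% of all genes.

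Among ligands and their binding proteins, the 3 tested genes were Il33, Il36g and Il18bp, while Il36a, Il36b, Il36rn and Il1f10 had too few counts. Il18bp, which encodes the soluble protein that captures IL-18, measured 32.9, 26.8 and 24.2 CPM in WT and 19.2, 19.1 and 16.9 CPM in Nfkb2-/- libraries. It was thus lower in every Nfkb2-/- library, as Il18 itself was, and its log2 fold change was -0.61 (standard error 0.17, edgeR adjusted p = 0.138). Il33, an alarmin gene, was low, at 0.34 to 0.62 CPM in WT and 0.69 to 2.70 CPM in Nfkb2-/- libraries.

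Of the 6 tested receptor genes, 5 had a log2 fold change above 0 and 4 were lowest in WT replicate 3, and 0 were called. Il1rl1, encoding the IL-33 receptor ST2, measured 15.7, 91.4 and 2.24 CPM in WT and 99.7, 155 and 169 CPM in Nfkb2-/- libraries. The genotypes did not overlap, yet WT replicates differed so widely that the log2 fold change of 1.96 had a standard error of 1.05 (edgeR adjusted p = 0.405). Without WT replicate 2 it was 3.96 (edgeR adjusted p = 0.0486), in a fit that called 1248 of all genes against 248 with all libraries. It was 1.41 without WT replicate 3 and 2.15 without Nfkb2-/- replicate 1, with edgeR adjusted p-values of 0.388 and 0.377. Il1rap, the accessory chain shared by the receptors for IL-1, IL-33 and IL-36, measured 17.5, 20.1 and 4.65 CPM in WT and 20.6, 33.1 and 35.1 CPM in Nfkb2-/- libraries (log2 fold change 1.07, standard error 0.50, edgeR adjusted p = 0.340). It was called without both WT replicate 3 and Nfkb2-/- replicate 1 (log2 fold change 0.84, edgeR adjusted p = 0.0367). The IL-18 receptor genes Il18r1 and Il18rap overlapped between genotypes, with log2 fold changes of 0.10 and 0.19.

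Among the 12 genes of receptor signaling, 6 lay above and 6 below 0. Traf6, the ubiquitin ligase downstream of MyD88, gave 435, 395 and 487 CPM in WT and 315, 320 and 304 CPM in Nfkb2-/- libraries. Its values did not overlap, and its log2 fold change was -0.49 (standard error 0.15, edgeR adjusted p = 0.161). Irak4, the kinase bound by MyD88, also lay lower in Nfkb2-/- libraries, but by little, at 44.0 to 49.2 CPM against 49.3 to 51.1 CPM in WT (log2 fold change -0.12). Irak1 and Tab2, further signaling genes, had log2 fold changes of 0.05 and 0.01.

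Of the 12 inflammasome sensors other than NLRP3, 0 were called. The log2 fold change was above 0 for 11, against 55.7% of all genes, with a median of 0.27, and 7 of the 12 were lowest in WT replicate 3. Some of these values were close to 0 (Naip5 at 0.03), and that of Nlrp6 came from Nfkb2-/- replicate 1 alone. Aim2, the sensor of cytosolic DNA, measured 107, 132 and 120 CPM in WT and 167, 169 and 156 CPM in Nfkb2-/- libraries, and its log2 fold change was 0.46 (standard error 0.14, edgeR adjusted p = 0.168). Unlike Nlrp3, Aim2 was steady within each genotype. Nlrp10 gave 3.72, 9.01 and 5.20 CPM in WT and 17.0, 15.6 and 11.7 CPM in Nfkb2-/- libraries, without overlap (log2 fold change 1.30, standard error 0.34, edgeR adjusted p = 0.120). Nlrp1a had values of 8.52, 13.3 and 4.89 CPM in WT and 16.7, 19.4 and 19.4 CPM in Nfkb2-/- libraries (log2 fold change 1.06, standard error 0.34, edgeR adjusted p = 0.178). Naip2 and Naip6, receptors for bacterial proteins, had log2 fold changes of 0.07 and 0.15. Nlrp1a and the Naip genes have close paralogs, so the division of reads between family members is uncertain.

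Of the 11 effectors and cofactors, 6 lay above 0. Casp8, whose product can also cut gasdermin D, measured 86.3, 105 and 89.1 CPM in WT and 121, 113 and 116 CPM in Nfkb2-/- libraries, without overlap (log2 fold change 0.32, standard error 0.14, edgeR adjusted p = 0.301). Txnip, encoding a thioredoxin-binding protein reported to bind NLRP3, measured 121, 98.0 and 158 CPM in WT and 172, 209 and 182 CPM in Nfkb2-/- libraries, again without overlap (log2 fold change 0.58, standard error 0.20, edgeR adjusted p = 0.207). The fit without WT replicate 3 and Nfkb2-/- replicate 1 called Txnip as well (log2 fold change 0.82, edgeR adjusted p = 0.0443). Exons of Txnip overlap those of Gm15441 on the other strand, over 606 of its 3123 exonic bases. Exons of Il1rap, Il18bp, Irak4 and Nek7 also overlap those of genes on the other strand. The limit given for Il1a holds for all of these. Nek7, a kinase that NLRP3 needs for assembly, overlapped between genotypes, with a log2 fold change of 0.10.

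Among the 4 inhibitors, 3 had log2 fold changes below 0, and the most negative values of the wider list were found there. Serpinb1a, which encodes a serpin known to restrain inflammatory caspases, gave 58.9, 14.5 and 48.6 CPM in WT and 6.85, 7.65 and 5.99 CPM in Nfkb2-/- libraries. The lowest WT value was still above the highest Nfkb2-/- value, and the log2 fold change was -2.58 (standard error 0.48, edgeR adjusted p = 0.0577). Serpinb9, encoding an inhibitor of granzyme B, measured 1327, 638 and 1735 CPM in WT and 296, 428 and 369 CPM in Nfkb2-/- libraries, and its log2 fold change was -1.76 (standard error 0.37, edgeR adjusted p = 0.0735). Both serpin genes had their lowest WT value in replicate 2, as did 7 of the 8 mature dendritic cell markers. So did other dendritic cell markers such as Cd74 and Irf4, though not Itgax, and Traf6 of the wider list. The share of all genes lowest there among WT libraries was not determined, and the part of cell composition in the serpin values was not tested.

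Trim30a, encoding a protein reported to dampen NLRP3 activation, had a difference of the opposite sign, with 109, 149 and 67.8 CPM in WT and 200, 286 and 214 CPM in Nfkb2-/- libraries (log2 fold change 1.11, standard error 0.30, edgeR adjusted p = 0.125). Card19 gave a log2 fold change of -0.03. Serpinb and Trim30 genes belong to multigene families, and their counts carry the same uncertainty as those of Nlrp1a.

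**Figure D5:**
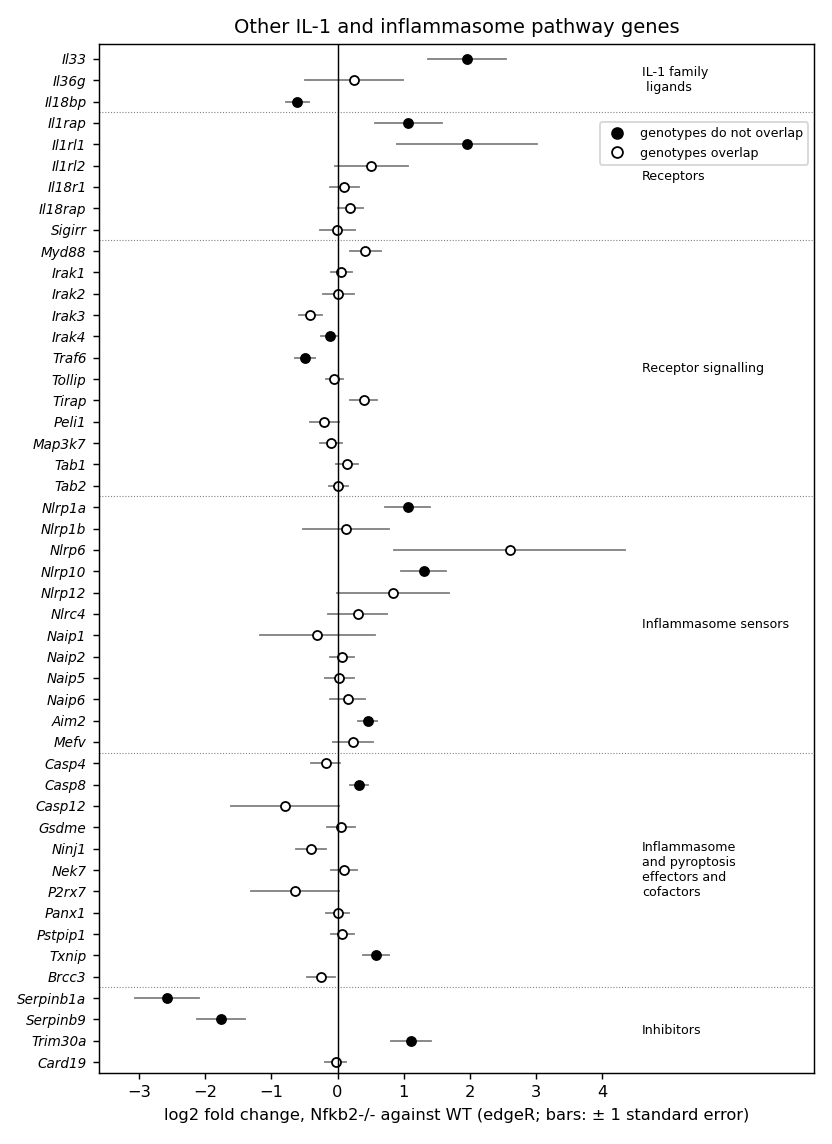
Log2 fold change from edgeR, Nfkb2-/- against WT, with ± 1 standard error derived from its test, for the 48 tested genes of the wider list, grouped by role. Filled points mark the 14 genes whose genotypes did not overlap, 9 above 0 and 5 below, with Serpinb1a at -2.58 and Serpinb9 at -1.76 farthest to the left.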

How the data were processed

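RNA-seq libraries of 3 WT and 3 Nfkb2-/- BMDC samples were grouped by the genotype in their labels. The authors deposited whole-number read counts per Ensembl ID for each library, without normalization. The submitters' processing notes name HISAT2 and the build GRCm38; the counting tool, its annotation and its use of strand are not given in the sources used here. A joined table held equal values for all 56748 IDs and was not used.

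Genes named in GENCODE M21 with at least 50 counts over the 6 libraries were kept; unnamed IDs, with 1.01% to 1.75% of counts, stayed out of library sizes. Counts were TMM-normalized and compared with edgeR 4.0.16 (glmQLFit, glmQLFTest; R 4.3.3), with Benjamini-Hochberg adjustment over all 21849 genes. DESeq2 1.42.0, limma voom 3.58.1, other scalings and filters, a replicate block and leaving out libraries were alternatives. Tests were checked on simulated counts. Standard errors were derived from the edgeR test, as the absolute log2 fold change divided by the square root of its F statistic. Intervals (95%) use these standard errors and edgeR's total degrees of freedom, residual plus prior. The SDs hold counting error as well as replicate spread, and these were not separated.

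The 10 genes and all lists were chosen with earlier results of these data known. Of the wider list, the 3 most abundant genes of each role and those whose genotypes did not overlap, with a mean of at least 5 CPM, were named. Genes whose pattern resembles a called member were to be named, and none was called.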

Additional observations from a re-analysis of the deposited data

How the results depend on the processing

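Of the 150 refits of the 10 genes (15 alternatives each), 6 changed the sign of a log2 fold change and 1 added a call. No alternative except that with no filter beyond 1 count, which called 1 gene (Il1a), called any of the 10. Of the wider list, DESeq2 called 9 genes, filterByExpr 1 (Serpinb1a), no filter beyond 1 count 7, at least 10 counts in every library 1 (Serpinb1a), and the fit without both WT replicate 3 and Nfkb2-/- replicate 1 (chosen after seeing the data) 3 (Il1rap, P2rx7 and Txnip). Over all genes, the count was 1890 with DESeq2, 488 with limma voom, 397 with filterByExpr, 1625 with no filter beyond 1 count, 459 with at least 10 counts in every library and 908 without both of those libraries. Leaving out 1 library at a time gave 0 to 6 calls in the wider list and 0 to 1248 over all genes. The highest numbers came without WT replicate 2, where Il1rl1, Nlrp1a, Nlrp10, Serpinb1a, Serpinb9 and Trim30a were called, and P2rx7 was called without WT replicate 3. When WT replicate 1 or any of Nfkb2-/- replicates 1, 2 and 3 was left out, edgeR called 0 genes, with 2325, 4088, 2580 and 2726 genes at an unadjusted p below 0.05. Nfkb2 kept its direction, with log2 fold changes from -2.96 to -2.33 and adjusted p-values up to 0.163 (edgeR).

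Sign changes were limited to small values. With 1 library left out, ranges crossed 0 for Il1b (-0.23 to 0.24), Il1r2 (-0.085 to 0.63), Casp1 (-0.072 to 0.083), Card19 (-0.12 to 0.10), Il18r1 (-0.076 to 0.29), Il36g (-0.23 to 1.47), Irak1 (-0.047 to 0.18), Naip2 (-0.046 to 0.21), Naip6 (-0.083 to 0.45), Nek7 (-0.011 to 0.25) and Tab2 (-0.021 to 0.046). With no filter beyond 1 count, Casp1 was -0.046, Irak1 -0.017 and Tab2 -0.058. Without both libraries named above, Il1r2 was -0.070, Il36g -0.095 and Naip6 -0.045. Card19 was 0.063 without TMM, and Tab2 was -0.0044 with DESeq2 and -0.0045 with RLE size factors. The cause was not tested. The median of all genes was 0.60 with no filter beyond 1 count, against 0.08 with the filter of 50 counts, so signs in that fit are relative to this shift.

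With the replicate number as a block, edgeR called 0 of the 10 genes, 0 of the wider list and 0 of all genes, with 3331 genes at an unadjusted p below 0.05. The correlations of same-numbered deviations were 0.11, 0.09 and -0.04, so the numbers were not taken to pair the libraries.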

Other observations

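Genes of the wider list outside the naming rule were also looked at, and the 3 given here were chosen after their values were seen. Il1rl2 encodes the IL-36 receptor and lies beside Il1r1 on chromosome 1. It measured 44.2, 81.5 and 12.8 CPM in WT replicates 1, 2 and 3 and 57.2, 66.9 and 73.2 CPM in Nfkb2-/- replicates 1, 2 and 3. WT thus held both its highest and its lowest value, in the same libraries as for Nlrp3. P2rx7, the ATP-gated channel that triggers NLRP3 in textbook accounts, measured 19.5, 23.8 and 2.55 CPM in WT and 11.1, 9.23 and 9.07 CPM in Nfkb2-/- libraries, with the same order of WT replicates. Without WT replicate 3 it was called (log2 fold change -1.14, edgeR adjusted p = 0.0467), and without Nfkb2-/- replicate 1 as well it had a log2 fold change of -1.26 (edgeR adjusted p = 0.0306). Nlrp6 had a large log2 fold change from 1 library alone. It measured 1.74 CPM in Nfkb2-/- replicate 1, the library with the most detected IDs, and at most 0.12 CPM in the others.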
